A study of Mus musculus with 24 samples.

Results

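The 37 RNAs encoded by the murine mitochondrial genome were examined on the surface of blood cells and in whole peripheral blood mononuclear cells (PBMCs). They were chosen as all genes whose symbol starts with mt- and comprised 22 tRNAs, 2 rRNAs and 13 mRNAs. All 37 were found among the 102001 transcripts listed in the 5 surface tables and among the 55335 genes of the PBMC tables. Surface RNA was measured in 3 libraries for each of 5 cell types: monocytes, hematopoietic stem and progenitor cells (HSPCs), natural killer (NK) cells, T cells and B cells. All these cells came from wild type C57BL/6 mice of unstated age, with B cells, T cells (isolated with a kit for CD8 T cells) and NK cells from spleen, and HSPCs (isolated by lineage depletion) and monocytes from bone marrow. The assay, AMOUR, anneals a random primer carrying a T7 promoter to fixed, intact cells held on lectin beads and amplifies the exposed RNA in place with T7 RNA polymerase. PBMC total RNA was sequenced in 3 libraries each of the treatments labelled ct, WT and Y, all of wild type genotype. The labels do not explain these letters, so they are kept here.

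Mitochondrial DNA is transcribed from both strands into long precursor RNAs. In these precursors tRNAs lie between most of the rRNAs and mRNAs, and their excision frees the neighbouring RNAs. The rRNAs form the mitochondrial ribosome, the tRNAs read the mitochondrial code, and the mRNAs encode membrane subunits of the respiratory chain and of ATP synthase. By position on chromosome M of GRCm38 (GENCODE M21), 14 tRNAs, both rRNAs and 12 mRNAs are read from the plus strand. The remaining 8 tRNAs and the mRNA mt-Nd6 are read from the minus strand. Genes of the 2 strands abut or overlap, and whether the libraries or the counting kept the strand is not given in the sources used here. A value of one gene may therefore include RNA of the other strand.

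The tRNA sequences on which the results turn are given below from 5′ to 3′ as DNA letters of GENCODE M21, with the anticodon in capitals. The first 4 are the isoleucine, aspartate, lysine and leucine (UUR) tRNAs, whose shares on B cells lay outside those of the other cell types. The next 4 are the methionine, histidine, valine and serine (AGY) tRNAs, which had the highest surface levels. The last is the alanine tRNA mt-Ta, whose human counterpart was imaged on cells in the study. The positions are chrM:3706-3774 for mt-Ti, chrM:6942-7011 for mt-Td, chrM:7700-7764 for mt-Tk, chrM:2676-2750 for mt-Tl1, chrM:3845-3913 for mt-Tm, chrM:11546-11612 for mt-Th, chrM:1025-1093 for mt-Tv and chrM:11613-11671 for mt-Ts2, all on the plus strand, and chrM:5018-5086 on the minus strand for mt-Ta.
mt-Ti: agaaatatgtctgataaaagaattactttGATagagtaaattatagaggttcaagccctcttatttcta
mt-Td: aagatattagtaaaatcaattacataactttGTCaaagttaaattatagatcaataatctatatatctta
mt-Tk: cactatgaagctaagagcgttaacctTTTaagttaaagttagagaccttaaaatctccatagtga
mt-Tl1: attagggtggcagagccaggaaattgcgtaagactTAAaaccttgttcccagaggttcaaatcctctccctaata
mt-Tm: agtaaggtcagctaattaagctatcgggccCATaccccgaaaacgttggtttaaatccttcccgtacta
mt-Th: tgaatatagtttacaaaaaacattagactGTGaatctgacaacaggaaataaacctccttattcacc
mt-Tv: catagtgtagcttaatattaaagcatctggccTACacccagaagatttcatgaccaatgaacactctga
mt-Ts2: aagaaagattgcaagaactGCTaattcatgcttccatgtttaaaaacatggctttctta
mt-Ta: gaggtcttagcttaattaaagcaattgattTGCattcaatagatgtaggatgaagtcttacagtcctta

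Surface levels are given as TPM, the share of a library after correction for transcript length. TPM keeps no depth, so the depth behind the surface values is unknown. The effective lengths used for the surface tables were not analysed here, and for RNAs as short as tRNAs (59 to 75 bases) TPM depends strongly on them. A lower share can come from fewer cells exposing an RNA, from less RNA per cell or from more of other RNAs, which cannot be told apart here. According to the study, neither AMOUR nor other current methods can wholly exclude RNA from inside cells. In the study's human cell line control, mitochondrial tRNAs kept substantial TPM after RNase treatment, which it ascribes as likely to stable structures. How much of the mitochondrial RNA measured here came from inside cells was not tested. The summed TPM of the marker lists of monocytes, NK cells, T cells and B cells was highest in the cell type each list names. The list of 10 HSPC markers reached 15.7 to 25.7 TPM in HSPCs and 45.7 to 58.3 TPM in monocytes, so it did not set the HSPC libraries apart. Monocytes also held 2017 to 2332 TPM of 10 neutrophil markers, against at most 242 TPM elsewhere. Of 10 platelet markers they held 120 to 176 TPM, against at most 41.0 elsewhere. NK cells held 105 to 267 TPM of 10 B cell markers, against 549 to 783 in B cells, and 66.1 to 113 TPM of 10 erythroid markers, against 1.09 to 79.6 elsewhere. The part of such cells in the results was not tested. In HSPCs, 3 transcripts of equal value (Gm55936-201, Gm55094-201 and Gm55118-201) took 74.3 to 83.3% of TPM, against 9.72 to 31.5% elsewhere, which lowers the TPM of all other RNAs of these libraries. Each comparison was therefore repeated on TPM rescaled without transcripts of rRNA type and these 3. The monocyte libraries differ from the other 12 in sequencing platform and in the transcripts their table lists, so platform and cell type cannot be told apart for monocytes.

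Mitochondrial tRNAs made up the bulk of mitochondrial TPM on the surface of each cell type. The 22 tRNAs together held 6.80, 6.18 and 6.30% of TPM in the monocyte libraries, 6.97, 6.47 and 6.52% in the NK cell libraries and 6.88, 7.43 and 3.84% in the T cell libraries. The B cell libraries held 2.75, 1.59 and 1.28% and the HSPC libraries 0.867, 1.20 and 0.986%. B cells and HSPCs lay below the other 3 cell types without overlap. On rescaled TPM the order changed, with HSPCs at 9.03 to 9.64%, within the range of B cells (5.08 to 10.7%), and NK cells highest at 19.7 to 20.2%. The tRNAs took 75.8 to 97.0% of the summed TPM of the 37 RNAs over the 15 libraries.

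**Figure D1:**
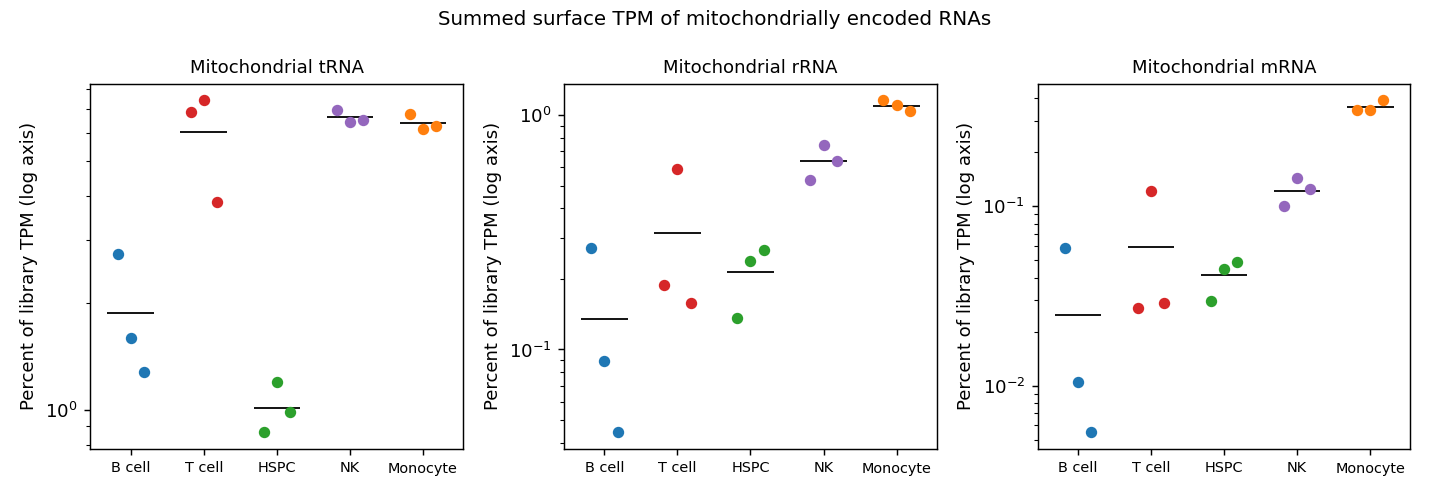
Summed TPM of mitochondrial tRNAs, rRNAs and mRNAs as percent of library TPM on log axes, by cell type, with a point for each of 3 libraries and a line at the mean. The tRNA share of B cells and HSPCs, at most 2.75%, lies below that of the other cell types, and the rRNA and mRNA shares of monocytes lie above all other libraries.

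The 2 rRNAs followed another order. Together they held 1.04 to 1.16% of TPM in monocytes and 0.531 to 0.746% in NK cells. T cells held 0.158 to 0.591%, HSPCs 0.136 to 0.266% and B cells 0.0444 to 0.271%. Monocytes lay above all other libraries, while the ranges of the last 3 cell types overlapped and T cells overlapped NK cells. The 13 mRNAs were the scarcest class, with 0.344 to 0.39% in monocytes, 0.0999 to 0.143% in NK cells, 0.0271 to 0.121% in T cells, 0.0296 to 0.0490% in HSPCs and 0.00549 to 0.0582% in B cells. B cell replicate 1 and T cell replicate 2 stood apart within their groups in both classes. Their mRNA shares of 0.0582 and 0.121% compared with at most 0.0105% in the other B cell and 0.0290% in the other T cell libraries. A transcript above 50 TPM counted as a surface hit in the study. Of the 22 tRNAs, 19 exceeded that level in all 15 libraries, as did both rRNAs, whereas 0 of the 13 mRNAs did.

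**Figure D2:**
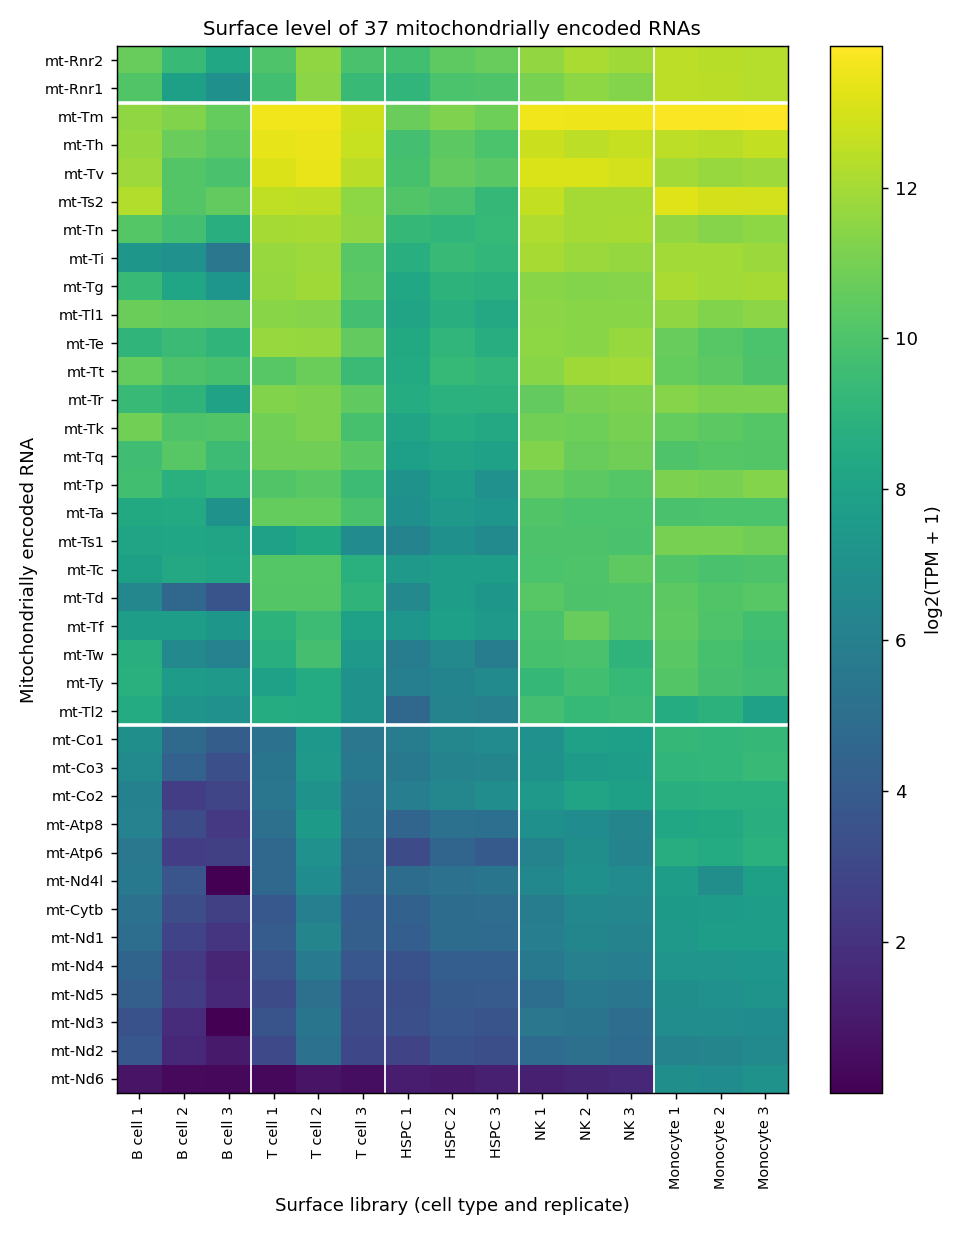
Surface level of the 37 RNAs as log2(TPM + 1) in 15 libraries, grouped into rRNAs, tRNAs and mRNAs. The B cell columns are low at mt-Ti (at most 161 TPM) and mt-Td (at most 85.3 TPM), and mt-Nd6 exceeds 2.04 TPM in the monocyte columns alone.

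Levels differed widely among the tRNAs. The methionine tRNA mt-Tm, which serves both initiation and elongation, was highest by the mean of the 5 cell types. Monocytes held 13972, 13968 and 15040.2 TPM of mt-Tm, NK cells 12372, 11909 and 11707, T cells 12013, 12396 and 7289, B cells 3099, 2453 and 1537, and HSPCs 1673, 2299 and 1828. Monocytes lay above all other libraries, and NK cells overlapped T cells. For the histidine tRNA mt-Th, T cells held 10641, 11253 and 6726 TPM, NK cells 6914, 5681 and 6346, monocytes 5814, 5404 and 6115, B cells 3282, 1667 and 1319.7, and HSPCs 855, 1353 and 987. For the valine tRNA mt-Tv, T cells held 9114, 11112 and 5640.0 TPM, NK cells 8842, 8729 and 7912, monocytes 3989.7, 3399 and 3701, B cells 3649.5, 1142 and 943, and HSPCs 927, 1485 and 1297. In contrast to mt-Tm, monocytes lay below every T cell library for both of these tRNAs and below every NK cell library for mt-Tv.

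The serine (AGY) tRNA mt-Ts2 lacks the D arm of canonical tRNAs. Its level was 9267, 8137 and 7885 TPM in monocytes, 6131, 4070.2 and 4189 in NK cells, 5932, 5784 and 2946 in T cells, 5048, 1162 and 1495 in B cells and 1102, 941 and 594 in HSPCs. B cell replicate 1 was over 3 times as high in mt-Ts2 as the other B cell libraries and overlapped NK and T cells. The asparagine tRNA mt-Tn (chrM:5089-5159, minus strand) stood at 4823, 4103 and 4343 TPM in NK cells, 4047, 4283 and 3125 in T cells, 3155, 2629.5 and 2888 in monocytes, 1194, 863 and 434 in B cells and 595, 567 and 639 in HSPCs. B cells overlapped HSPCs for mt-Tn. The isoleucine tRNA mt-Ti, which ranked 21st in B cells and 5th to 7th in the other cell types, is described with B cells below.

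At the other end, the leucine (CUN) tRNA mt-Tl2 held 849, 636 and 689.6 TPM in NK cells, 391, 482 and 244 in monocytes, 378, 373 and 138 in T cells, 372, 145 and 128 in B cells and 25.2, 74.0 and 65.7 in HSPCs. NK cells lay above and HSPCs below all other libraries for this tRNA. The tyrosine tRNA mt-Ty held 1167, 885 and 801 TPM in monocytes, 611, 827 and 638 in NK cells, 242, 366 and 137 in T cells, 445, 201 and 174 in B cells and 62.9, 77.0 and 96.1 in HSPCs. The tryptophan tRNA mt-Tw held 1259, 904 and 732 TPM in monocytes, 908, 944 and 514 in NK cells, 415, 882 and 180.3 in T cells, 414, 90.9 and 69.9 in B cells and 59.0, 91.0 and 57.4 in HSPCs. For mt-Tw the ranges of neighbours in this order overlapped throughout. The alanine tRNA mt-Ta held 1525, 1551 and 936 TPM in T cells, 1093, 987 and 1002 in NK cells, 951, 981 and 984 in monocytes, 346, 362 and 139.6 in B cells and 122, 183 and 153 in HSPCs. Thus mt-Ta exceeded 50 TPM in every library, and it ranked between 13th and 19th of the 22 tRNAs within the cell types. The tRNAs of phenylalanine (mt-Tf), cysteine (mt-Tc), glutamate (mt-Te), arginine (mt-Tr) and glutamine (mt-Tq) lay between these extremes, from 158 to 1626, 172 to 1384, 349 to 3429, 249.9 to 2605 and 229.9 to 2437 TPM.

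The order of the 22 tRNAs was compared by Spearman's rho on cell type means, given as a description because the values share libraries and transcript lengths. Among T cells, HSPCs, NK cells and monocytes rho ranged from 0.84 to 0.97, with the highest value between HSPCs and NK cells. B cells gave 0.63 to 0.75 with the other 4 cell types. GC content gave 0.41 with the level in B cells and between -0.00 and 0.10 with the levels in the others. Length gave -0.15 to 0.05, and the predicted folding energy -0.28 to 0.11.

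To ask which members differ between cell types, each cell type was compared with the other 4 averaged, using limma on log2(TPM + 1). The fit covered the 1142 transcripts above 50 TPM in at least 1 library, with Benjamini-Hochberg adjustment over all of them and calls at an adjusted p below 0.05. All 37 members passed this filter, but mt-Nd2, mt-Nd3, mt-Nd5 and mt-Nd6 passed only through the monocyte libraries, so for these 4 a higher level in monocytes was built in. The same holds for 605 of the 1142 transcripts, so shares and medians over all of them are in part set by the filter. The labels do not say that libraries came from separate mice, so p-values measure the spread between these samples.

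In B cells 0 of the 37 members were called higher and 29 were called lower (19.7% of tested transcripts were called higher and 43.5% lower). Both rRNAs, all 13 mRNAs (4 of which entered through monocytes alone) and 14 of the 22 tRNAs were lower, and the median log2 fold change was -1.25 for tRNAs, -2.20 for rRNAs and -2.51 for mRNAs, against -0.55 over all tested transcripts. On rescaled TPM 28 members were lower and 0 higher (37.9% and 16.6% of 2395 transcripts). The isoleucine and aspartate tRNAs stood out. B cells held 161, 129 and 44.8 TPM of mt-Ti, against 3436, 3677 and 1254 in T cells, 4322, 3497 and 3299.8 in NK cells, 3989.7, 3906 and 3561 in monocytes and 429, 649 and 577 in HSPCs. All B cell libraries lay below the other 12, and mt-Ti fell by 4.41 on the log2 scale (SE 0.35, limma adjusted p = 1.43e-07). For mt-Td, B cells held 85.3, 23.5 and 11.3 TPM, T cells 1134, 1144 and 515, NK cells 1258, 1015 and 1048, monocytes 1335, 1103 and 1258, and HSPCs 90.2, 216 and 159. B cells again lay below the other 12 libraries, narrowly so for replicate 1, and mt-Td fell by 4.45 (SE 0.44, limma adjusted p = 1.09e-06). Its log2 fold change was -5.22 without replicate 1 and -3.81 without replicate 3. These were the only 2 members whose B cell libraries all lay below the others, which 3.68% of tested transcripts did.

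The lysine and leucine (UUR) tRNAs did not follow. B cells held 1940.3, 1052 and 1115 TPM of mt-Tk, T cells 1966, 2247 and 930.4, NK cells 1968, 1780.3 and 2098, monocytes 1539, 1352 and 1211, and HSPCs 277, 378 and 336. For mt-Tl1, B cells held 1726, 1571 and 1515 TPM, T cells 2721, 2670.0 and 851, NK cells 2779, 2741 and 2728, monocytes 2997, 2465 and 2855, and HSPCs 277, 422 and 329. B cells overlapped T cells for both tRNAs, and neither was called (log2 fold change 0.28, adjusted p = 0.347 by limma, and 0.12, adjusted p = 0.723).

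Dividing each tRNA by the summed TPM of the 22 removes the overall level and scaling of a library. On B cells mt-Ti made up 0.586, 0.809 and 0.350% of mitochondrial tRNA TPM, against 3.26 to 6.32% in the other 12 libraries, and mt-Td 0.311, 0.148 and 0.0880%, against 1.04 to 2.00%. The methionine tRNA mt-Tm (11.3, 15.4 and 12% against 16.7 to 23.9%) and the glycine tRNA mt-Tg (2.37, 1.77 and 1.21% against 3.48 to 6.60%) also lay below. By contrast, mt-Tk made up 7.06, 6.61 and 8.71% against 1.92 to 3.41%, and mt-Tl1 6.28, 9.86 and 11.8% against 2.22 to 4.53%. Thus 4 of 22 tRNAs lay below and 2 above all other libraries in B cells, where 2.28% and 5.87% of all tested transcripts did on the same basis. In the sequences printed above, GC content was 17.1% for mt-Td and 27.5% for mt-Ti, 33.8% for mt-Tk and 44.0% for mt-Tl1, while mt-Tm, whose share was also low in B cells, had the highest of the 22 with 44.9%.

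**Figure D3:**
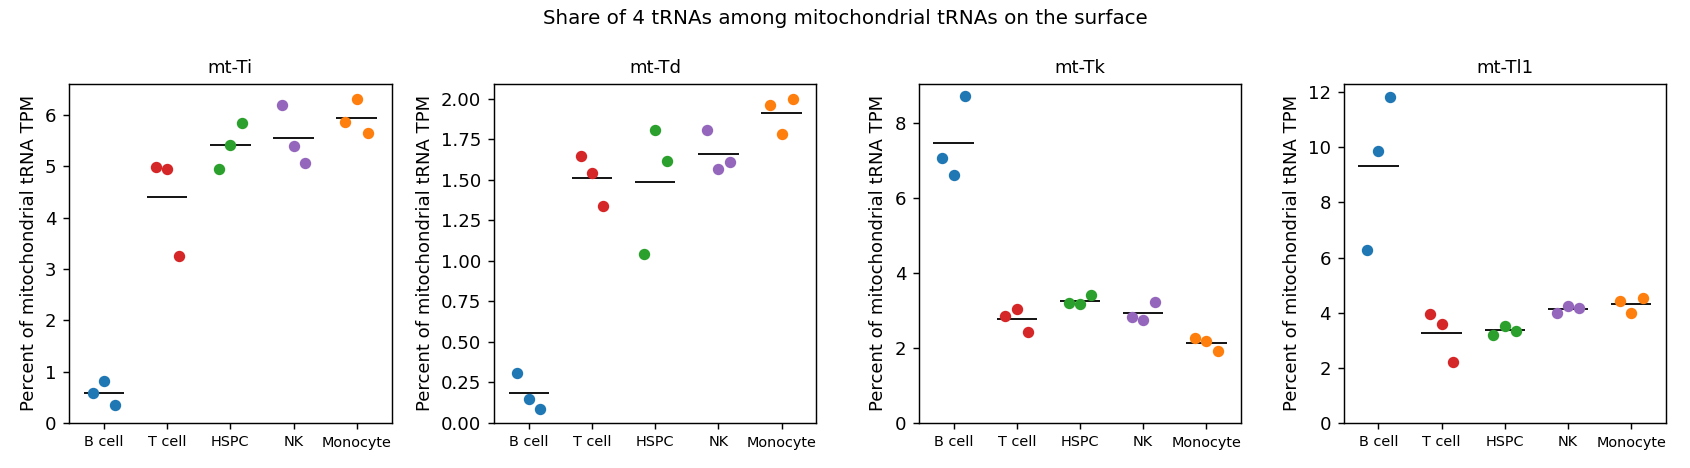
Percent of mitochondrial tRNA TPM held by mt-Ti, mt-Td, mt-Tk and mt-Tl1 by cell type, with a point for each of 3 libraries and a line at the mean. B cells lie at 0.350 to 0.809% for mt-Ti, below the 3.26 to 6.32% of the other libraries, and at 6.61 to 8.71% for mt-Tk, above their 1.92 to 3.41%.

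The rRNAs were lower in B cells than in the mean of the others. The small-subunit rRNA mt-Rnr1 (chrM:70-1024) held 5701, 5607 and 5192 TPM in monocytes, 2177, 2958 and 2534 in NK cells and 815, 2819 and 642 in T cells, while HSPCs held 559, 973 and 1055 and B cells 1085, 232 and 126. The large-subunit rRNA mt-Rnr2 (chrM:1094-2675) held 5868, 5383 and 5179 TPM in monocytes, 3131, 4505 and 3863 in NK cells and 1075, 3090.4 and 939 in T cells, while HSPCs held 804, 1402 and 1606 and B cells 1627, 658 and 318. Replicate 1 of B cells exceeded all HSPC libraries and lay within the range of T cells for both. In B cells mt-Rnr1 fell by 2.58 (SE 0.52, limma adjusted p = 0.000606) and mt-Rnr2 by 1.82 (SE 0.41, limma adjusted p = 0.00162). These values were -3.47 and -2.43 without that replicate, and -1.92 and -1.25 without replicate 3. The level of mt-Rnr2 per mt-Rnr1 was 1.5, 2.83 and 2.52 in B cells, 1.10 to 1.52 in T cells, NK cells and HSPCs, and 1.03, 0.960 and 0.997 in monocytes.

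In T cells 13 members were called higher and 2 lower (26.1% and 55.5% of tested transcripts). Of the 2 lower calls, that of mt-Nd6 was fixed by the filter, since it entered through monocytes alone. All 13 were tRNAs, and the median log2 fold change was 0.87 for tRNAs and -0.57 for mRNAs, against -1.10 over all tested transcripts. On rescaled TPM 9 were higher and 10 lower (11.6% and 71.1%), and under quantile normalization 1 was higher and 10 lower (26.3% and 31.8%), with a tRNA median of -0.21 against -0.12 over all tested transcripts. The count of lower members was 10 without T cell replicate 2 (56.2% of transcripts) and 5 without B cell replicate 3 (56.3%). The largest increases were those of mt-Th (log2 fold change 1.67, SE 0.24, limma adjusted p = 1.85e-05) and mt-Td (1.66, SE 0.44, limma adjusted p = 0.00326). Neither was called under quantile normalization (0.39, limma adjusted p = 0.0754, and 0.42, limma adjusted p = 0.372). The T cell mean of mt-Td, 931 TPM, lay below the 1107 of NK cells and the 1232 of monocytes. It lay above the 40.0 of B cells and the 155 of HSPCs. Only mt-Th had a share of tRNA TPM that was higher in all T cell libraries than in the others (4.64% of transcripts). Below the other libraries in share lay mt-Ts1 and mt-Ty (15%). The serine (UCN) tRNA mt-Ts1 held 247, 342 and 104 TPM in T cells, while HSPCs held 74.1, 126 and 95.7, B cells 274, 295 and 269, NK cells 1009, 1013 and 943, and monocytes 2071, 2063 and 1889.8. It fell by 1.21 (SE 0.27, limma adjusted p = 0.000885). Without the monocytes, whose mt-Ts1 level was highest, its value was -0.53 (limma adjusted p = 0.125). The rRNAs were not called in T cells on TPM, where replicate 2 held over 2.8 times the mt-Rnr2 of the other libraries. On rescaled TPM mt-Rnr2 was lower (-1.09, limma adjusted p = 0.0205), and under quantile normalization both were (-1.75 for mt-Rnr1 and -1.62 for mt-Rnr2).

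In HSPCs 0 members were called higher and 24 lower (2.89% and 72.2% of tested transcripts). All 22 tRNAs were among them, with a median log2 fold change of -2.14 against -1.38 over all tested transcripts, whereas 0 of 2 rRNAs and 2 of 13 mRNAs were. The 2 mRNAs were mt-Nd6, which entered the test through monocytes alone, and mt-Atp6, and neither was called on rescaled TPM (0.31 and -0.52). Reads of mt-Atp6 can also be assigned to its nuclear copy, as described below. The proline tRNA mt-Tp held 139, 209.9 and 128 TPM in HSPCs, while monocytes held 2296, 2121 and 2487, NK cells 1601, 1327 and 1178, T cells 1117, 1303 and 737, and B cells 827, 451 and 564. HSPCs lay below the other 12 libraries, and mt-Tp fell by 2.91 (SE 0.22, limma adjusted p = 6.08e-08). The leucine (CUN) tRNA mt-Tl2 fell by 2.74 (SE 0.40, limma adjusted p = 2.89e-05). In all, 9 tRNAs lay below the other 12 libraries without overlap, as did 21.5% of tested transcripts. In share of tRNA TPM, only the arginine tRNA mt-Tr lay above the others (4.2%). After rescaling, the rRNA median turned from -0.83 to 0.89 and the mRNA median from -0.89 to 0.84. The tRNA median was -0.42, with values of -1.19 for mt-Tp and -1.04 for mt-Tl2. Then 8 tRNAs were lower, these 2 among them, and 1 mRNA, mt-Co2, was higher (20.8% and 32.9%).

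In NK cells 23 members were called higher and 1 lower (15.8% and 23.1% of tested transcripts), and on rescaled TPM 21 and 1 (9.14% and 34%). The lower call was mt-Nd6, which entered through the monocytes of the comparison mean alone. The count of higher members was 35 without B cell replicate 1 (18.6% of transcripts), and it was 15 under quantile normalization (17.5%). The tRNAs supplied 21 of the 23 calls, with a median log2 fold change of 1.36 against -0.14 over all tested transcripts. The preponderance of tRNAs among the calls was not seen without monocytes. All 33 members then tested were higher in NK cells, as were 44.3% of the 537 transcripts tested. The members were 22 tRNAs, 2 rRNAs and 9 mRNAs, with medians of 1.78, 1.87 and 1.89. The cause of this change was not tested. The largest changes were those of mt-Ti (2.12, SE 0.35, limma adjusted p = 0.000341) and mt-Td (2.08, SE 0.44, limma adjusted p = 0.00225), both of which were low in B cells, which are part of the comparison. Only mt-Tl2 and the threonine tRNA mt-Tt (2742, 3799 and 3981 TPM, against 360.4 to 1746 elsewhere) lay above all other 12 libraries, as did 0.525% of tested transcripts. The rRNA mt-Rnr2 was higher (1.23, SE 0.41, limma adjusted p = 0.0296), but was called neither on rescaled TPM (0.94, limma adjusted p = 0.0700) nor without any 1 of the NK replicates (1.11 to 1.37), whereas without monocytes its value was 1.82 (limma adjusted p = 0.00401).

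In monocytes 31 members were called higher and 0 lower, where 72.6% of tested transcripts were called higher and 10.6% lower. The median log2 fold change was 1.23 for tRNAs, 2.22 for rRNAs and 3.03 for mRNAs, and 3.02 over all tested transcripts. Since over 50% of these entered only through monocytes, the last value is no reference for the members. Under quantile normalization the medians were 0.94 for tRNAs, 2.36 for rRNAs and 0.87 for mRNAs. Then 13 of 22 tRNAs, both rRNAs and 6 of 13 mRNAs were called higher, and 2 tRNAs lower. The share of all transcripts called in that fit is not given here. On rescaled TPM 21 were higher and 5 lower (71.8% and 15.2%), the latter being mt-Tv, mt-Tq, mt-Tk, mt-Te and mt-Tt. The rRNAs rose by 2.56 for mt-Rnr1 (SE 0.52, limma adjusted p = 0.000334) and 1.89 for mt-Rnr2 (SE 0.41, limma adjusted p = 0.000676), and on rescaled TPM by 1.58 and 0.91 (limma adjusted p = 0.0101 and 0.0443). In all, 5 tRNAs, both rRNAs and 12 mRNAs lay above the other 12 libraries without overlap, as did 63.1% of tested transcripts. Both counts include RNAs that entered only through monocytes, 4 of the 12 mRNAs among them. In share of tRNA TPM, mt-Tm, mt-Ts1 and mt-Tg lay above (43.3%) and mt-Tv, mt-Tq and mt-Tk below (11.1%) all other libraries.

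The mRNAs with the highest levels encode subunits of cytochrome c oxidase, the last complex of the respiratory chain, and of ATP synthase. Monocytes held 606, 584 and 604 TPM of mt-Co1, NK cells 127, 242 and 226, HSPCs 57.5, 84.3 and 103, T cells 36.8, 171 and 45.0, and B cells 118, 27.3 and 16.2. For mt-Co3 monocytes held 567, 593 and 655 TPM, NK cells 140.3, 205 and 209, HSPCs 47.7, 72.9 and 79.3, T cells 41.3, 177 and 48.6, and B cells 100.3, 19.9 and 9.30. In both, T cell replicate 2 reached the range of NK cells and B cell replicate 1 exceeded the HSPC libraries. For mt-Co2 monocytes held 417, 439.6 and 446 TPM, NK cells 181, 278 and 237, HSPCs 60.3, 83.7 and 110.1, T cells 41.9, 134 and 38.3, and B cells 68.7, 4.75 and 6.46. The ATP synthase mRNA mt-Atp8, which overlaps mt-Atp6 on the same transcript, held 321, 343 and 428 TPM in monocytes, 122, 105 and 78.6 in NK cells, 22.5, 36.4 and 32 in HSPCs, 34.2, 188 and 36.5 in T cells and 70.2, 8.53 and 3.99 in B cells. Monocytes lay above all other libraries for these 4 mRNAs. For mt-Atp6, monocytes held 392, 373 and 463 TPM against 4.82 to 129.6 in the other libraries, a rise of 3.83 (SE 0.60, limma adjusted p = 2.83e-05). Among the other mRNAs, cytochrome b (mt-Cytb) ranged from 5.18 TPM in B cell replicate 3 to 222 in monocyte replicate 3. The complex I mRNAs mt-Nd1, mt-Nd4 and mt-Nd2 ranged from 3.35 to 209.6, 1.80 to 156 and 1.03 to 97.0 TPM, again lowest in B cell replicate 3 and highest in monocytes. B cell replicate 3 was also the library in which mt-Nd3 and mt-Nd4l were listed near 0, beside 0.857 and 6.65 TPM of their nuclear copies Gm28438 and Gm10222, while they reached 110.3 and 238 TPM in monocytes.

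The values of some mRNAs are uncertain because the nuclear genome holds near-identical copies. Of the 13 mRNAs, 6 shared over 50% of their 31-base words with an annotated nuclear copy, up to 99.9% for mt-Co3 and its copy Gm28437. Of the 22 tRNAs, 21 shared none with an annotated nuclear transcript. Only annotated transcripts were searched, so nuclear copies without annotation, of tRNAs or others, could not be found. In B cells mt-Co2 (68.7, 4.75 and 6.46 TPM) stood beside 14.9, 32 and 14.5 TPM of its copy Gm28661, so most of the sum was assigned to the copy in 2 of 3 libraries. In monocyte replicate 2, mt-Nd4l stood at 116 TPM beside 100 TPM of its copy Gm10222, and it was the mRNA whose monocyte libraries overlapped others. For mt-Atp6, the copy Gm10925 held 17.7, 21.8 and 28.4 TPM in HSPCs beside 7.85, 22.3 and 14.0 of the member. This copy held 21.9 to 59.5 TPM in NK cells, 6.23 to 39.1 in monocytes and 0.440 to 17.3 in B and T cells. With the copies added to their members, B cells had 29 members lower and monocytes 31 higher, as without. HSPCs then had 23 lower (72.1% of transcripts) in place of 24, and T cells had 3 lower (55.6% of transcripts) in place of 2. The third was mt-Co2 (-1.17, limma adjusted p = 0.0133, against -0.78, limma adjusted p = 0.230, without its copy), whose value in B cells moved from -3.38 to -1.89. The nuclear genes listed for oxidative phosphorylation complexes I, III, IV and V gave 25 tested transcripts, of which 24 passed the filter through monocytes alone. Their differences between monocytes and other cells were thus fixed by the filter, and their calls are not given. Nuclear protein-coding transcripts together held 17.3, 16.5 and 17.7% of TPM in monocytes and 0.617 to 2.83% elsewhere. Of all protein-coding TPM, mitochondrial mRNAs were 1.96 to 2.16% in monocytes, 4.20 to 6.71% in NK cells, 2.41 to 8.00% in T cells, 2.33 to 3.00% in HSPCs and 0.274 to 2.02% in B cells.

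Set apart in monocytes was mt-Nd6, a subunit of complex I and the only mRNA read from the minus strand. It lies at chrM:13552-14070 and overlaps the end of mt-Nd5 (chrM:11742-13565) on the opposite strand. Monocytes held 119.9, 105 and 135 TPM of mt-Nd6, against 1.35, 1.67 and 2.04 in NK cells, 1.13, 0.980 and 1.31 in HSPCs, 0.213, 0.652 and 0.448 in T cells and 0.690, 0.254 and 0.241 in B cells. The log2 difference of monocytes from the other 4 cell types was 6.04, given as a description because mt-Nd6 passed the filter through monocytes alone. The same libraries enter the mean with which NK and T cells were compared, where its values were -0.83 and -1.96. For mt-Nd5, which encodes another complex I subunit, monocytes held 120.5, 130.2 and 145 TPM, NK cells 31.4, 48.4 and 42.1, HSPCs 9.05, 14.0 and 14.6, T cells 8.35, 33.8 and 8.93, and B cells 17.7, 4.36 and 2.08. The ratio of mt-Nd6 to mt-Nd5 was thus 0.995, 0.809 and 0.934 in monocytes and 0.0193 to 0.125 in the other 12 libraries. The minus-strand share of tRNA TPM showed no such gap, with 19.4 to 19.7% in monocytes and 16.9 to 27.9% elsewhere. The part of the platform and of strand handling in the mt-Nd6 difference was not tested.

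**Figure D4:**
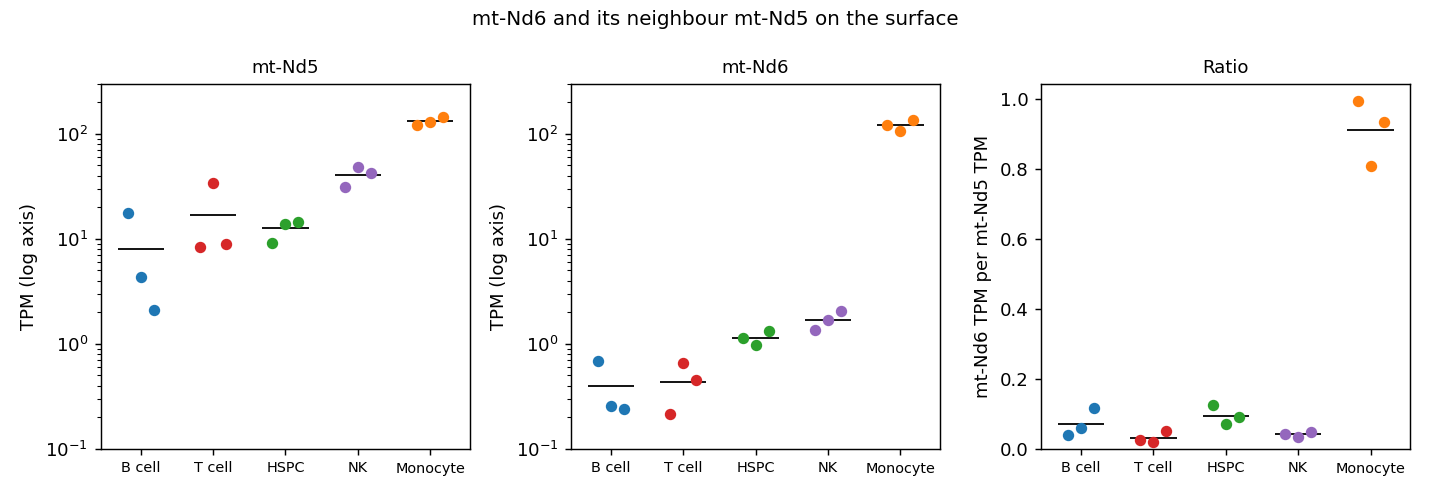
Surface TPM of mt-Nd5 and mt-Nd6 on log axes and their ratio by cell type, with a point for each of 3 libraries and a line at the mean. The ratio lies at 0.809 to 0.995 in monocytes and at 0.125 or below in the other 4 cell types.

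In total RNA of PBMCs the 2 rRNAs took most of the mitochondrial counts. Expected counts summed to 4686426 to 9055797 per library, and the rRNA gene CT010467.1 took 50.5 to 57.0% of them. The 37 members took up 2.93, 2.91 and 3.26% of counts for Y, 2.77, 2.91 and 1.92% for WT and 3.21, 2.80 and 3.45% for ct, and the 3 ranges overlapped. The lowest library, WT replicate 3, had a 95% Wilson interval of 1.91 to 1.93%, which covers counting error only. The 2 rRNAs made up 88.9 to 93.1% of mitochondrial counts, while tRNAs held 0.0829 to 0.166% and mRNAs 0.0909 to 0.172% of all counts. These shares of counts are not corrected for length and are not comparable with the surface TPM. The effective length assigned to tRNAs was 1.29 to 6.61 bases, so TPM of tRNAs in these tables was not used beyond their order. Over the 22 tRNAs, Spearman's rho between PBMCs and surface was 0.44 for B cells, 0.51 for monocytes, 0.58 for HSPCs, 0.65 for NK cells and 0.67 for T cells. The ratio of mt-Nd6 TPM to mt-Nd5 TPM was 0.553 to 0.818 in the 9 PBMC libraries.

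The 3 treatments were compared in pairs by edgeR's quasi-likelihood test with Benjamini-Hochberg adjustment over 11635 genes. In WT against ct 0 members were called in either direction (0.765% of genes were called higher and 1.6% lower), with 1 at an unadjusted p below 0.05 and 0 by DESeq2. With no filter on low counts, mt-Atp6 was called higher and mt-Co3 lower. For Y against ct the count by edgeR was 0 (0.266% and 0.438%), with 3 at an unadjusted p below 0.05 and 0 by DESeq2, but 5 higher without ct replicate 3 (0.975% of genes) and 6 with no filter on low counts (0.45%). For Y against WT it was 0 by edgeR (0.438% and 0.817%), with 7 at an unadjusted p below 0.05 and 1, mt-Tc, by DESeq2. With no filter, 6 members were higher and 1 lower in Y against WT. For counts at an unadjusted p and by DESeq2, the share of all genes is not given here. The same holds with no filter for WT against ct and Y against WT. Such counts are no result about the members in particular. The members' median log2 fold change was 0.08, 0.14 and 0.10, and the values ranged from -0.50 to 0.94, -0.19 to 1.06 and -0.37 to 0.88. The ends -0.50 (mt-Co3), 0.94 and 1.06 (mt-Atp6) belong to mRNAs whose counts were split unstably with nuclear copies, as described below. With copies added, mt-Co3 stood at 0.02 in WT against ct. The values of mt-Atp6 were then 0.05 in WT against ct and -0.004 in Y against ct.

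The cysteine tRNA mt-Tc had the smallest p-value. Its normalised counts (CPM) were 46.5, 44.8 and 33.6 for Y, 21.3, 26.9 and 21.6 for WT and 18.4, 20.1 and 38.4 for ct. The Y libraries lay above those of WT and overlapped ct through ct replicate 3. The log2 fold change was 0.83 for Y against WT (SE 0.21, edgeR adjusted p = 0.0752, and 0.84 with adjusted p = 0.0164 by DESeq2) and 0.68 for Y against ct (SE 0.21, edgeR adjusted p = 0.246). The next values were 0.88 for mt-Ty (edgeR adjusted p = 0.274) and -0.37 for mt-Tm (edgeR adjusted p = 0.341) in Y against WT. In Y against ct they were 0.65 for the glutamine tRNA mt-Tq (edgeR adjusted p = 0.388) and 0.60 for mt-Ta (edgeR adjusted p = 0.389). In WT against ct mt-Rnr2 held 16243, 17862 and 15882.5 CPM in WT and 21728, 18663 and 20817.5 in ct, without overlap, with a log2 fold change of -0.29 (SE 0.14, edgeR adjusted p = 0.422). The values of mt-Rnr1 (-0.27, edgeR adjusted p = 0.435) and mt-Tm (0.30, edgeR adjusted p = 0.454) did not pass either. The neutrophil markers summed to 243 to 261 CPM in Y, 94.3 to 116 in ct and 72.1 to 95.9 in WT, with Y above both other groups. The platelet markers summed to 640 to 758 CPM in ct, 528 to 571 in Y and 365 to 488 in WT, without overlap. Erythroid markers summed to 6732 to 8178 CPM in ct, above the 4918 to 4946 in Y and 3908 to 5076 in WT. The part of cell makeup in the mt-Tc and mt-Rnr2 values was not tested.

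**Figure D5:**
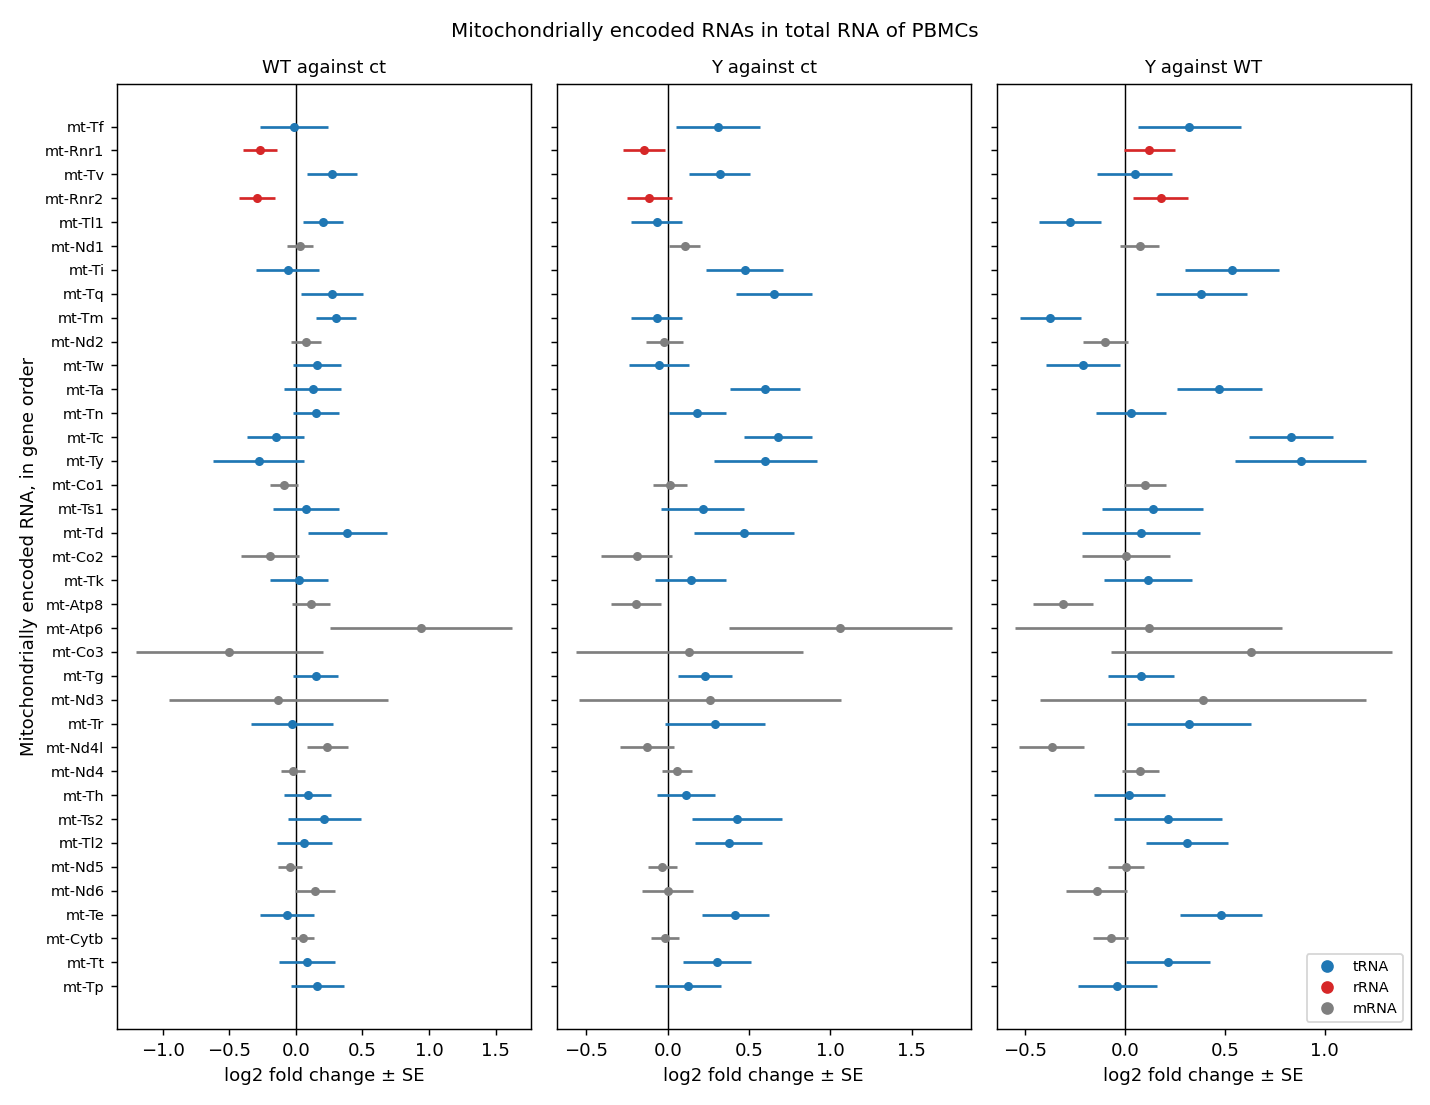
Log2 fold change with standard error of the 37 RNAs in PBMCs for WT against ct, Y against ct and Y against WT, 3 libraries a group, in gene order. The widest bars belong to mt-Atp6, mt-Co3 and mt-Nd3, and 0 of 37 members passed edgeR's adjusted threshold in any panel.

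Counting between members and nuclear copies was unstable for 4 mRNAs in PBMCs. For mt-Co2, with 555 to 1239 counts, the copy Gm28661 had 0.47 to 526 counts, while the sum of both stayed at 124 to 147 CPM. In ct replicate 1 mt-Atp6 was listed at 0 counts, while its copy Gm10925 had 1168, and the sum of both was 139 CPM, within the 115 to 140.4 CPM of all 9 libraries. In WT replicate 3 mt-Co3 held 0.141 CPM, while its copy Gm28437 had 1173 counts. The complex I mRNA mt-Nd3 had 0 counts in ct replicate 3, WT replicate 3 and Y replicate 1, where its copy Gm28438 had 98.0, 74.0 and 42.0. With copies added 0 of the 37 members were called in any comparison. Lists of nuclear genes were drawn for complexes I, III, IV and V, mitochondrial transcription and RNA processing, and mitochondrial aminoacyl-tRNA synthetases. They gave 113 tested genes, of which 1 was called in the 3 comparisons. This was Nars2, the mitochondrial asparaginyl-tRNA synthetase, which fell by 0.64 in WT against ct (SE 0.14, edgeR adjusted p = 0.0211). In that comparison 1.6% of all tested genes were called lower. Among the nuclear copies, Gm29216, which shares 29.6% of the 31-base words of mt-Co1, was higher in Y against ct (0.57, edgeR adjusted p = 0.0269) and in Y against WT (0.60, edgeR adjusted p = 0.0145).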

How the data were processed

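Surface RNA was profiled by AMOUR in 15 libraries and total PBMC RNA in 9. The authors trimmed surface reads, removed duplicates sharing a barcode, quantified them with kallisto and deposited TPM tables, in which monocytes have a table listing more transcripts. Replicates are called independent by the study. PBMC files hold expected counts estimated by the authors with RSEM (STAR alignment, mm10 in the submitters' processing notes), rounded here to whole numbers. The mouse transcript set of the surface tables and the strand settings are not given in the sources used here. TPM keeps no depth, and intervals on counts cover counting error only.

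Members are all genes whose symbol starts with mt-. The members and lists were chosen with earlier results of these data known. Surface TPM was tested on log2(TPM + 1) with limma 3.58.1 (R 4.3.3), each cell type against the other 4, for transcripts above 50 TPM in at least 1 library. Fold changes on this scale understate those of low RNAs. PBMC counts were tested with edgeR 4.0.16 (TMM, quasi-likelihood) and DESeq2 1.42.0. The limma and edgeR fits were tested on simulated data. Named genes were both rRNAs, the 6 highest and 3 lowest tRNAs, mt-Ta, the largest called changes in each direction, the 4 highest mRNAs with mt-Nd6, and the 3 smallest p-values per PBMC comparison; mt-Tk, mt-Tl1, mt-Tg, mt-Tt, mt-Tr, mt-Nd5 and the mRNAs with nuclear copies were added after their values were seen. Alternatives were other scalings, filters and pseudocounts, a replicate block, copies added, and libraries left out. Sequences and coordinates are from GENCODE M21 (GRCm38).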

Additional observations from a re-analysis of the deposited data

How the results depend on the processing

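The 18 named fold changes include those of mt-Nd6 in T cells, NK cells and monocytes. Its calls were fixed by the filter, so their stability shows nothing. Of 408 alternative values of the 18 fold changes, 0 reversed and 9 no longer passed. These were mt-Th (0.39) and mt-Td (0.42) in T cells under quantile normalization, mt-Ts1 in T cells without monocytes (-0.53), and mt-Rnr2 in NK cells on rescaled TPM (0.94), with quantile normalization (0.47), with no filter (1.23) and without each NK replicate (1.11 to 1.37). Called members changed as follows. Where the results above give no share over all transcripts or genes for the same fit, a count is no result about the members in particular. Rescaled TPM gave T cells 10 lower, HSPCs 1 higher and 8 lower, and monocytes 5 lower. Quantile normalization gave T cells 1 higher and 10 lower, HSPCs 5 lower and NK cells 15 higher. It left monocytes with 13 tRNAs, 2 rRNAs and 6 mRNAs higher, and 2 tRNAs lower. A pseudocount of 10 gave T cells 4 lower. Without monocytes, which left 33 members tested, T cells had 16 higher and 0 lower, and NK cells 33 higher and 0 lower. Leaving out 1 library gave T cells 2 to 10 lower (10 without T cell replicate 2, 5 without B cell replicate 3) and NK cells 19 to 35 higher (35 without B cell replicate 1). In PBMCs, no filter gave 1 higher and 1 lower for WT against ct, 6 and 0 for Y against ct, and 6 and 1 for Y against WT, and DESeq2 gave 1 higher for Y against WT. Leaving out 1 library gave 0 to 1 higher for WT against ct and 0 to 5 for Y against ct (1 and 5 without ct replicate 3), and 0 to 1 for Y against WT (1 without ct replicate 1 or 3). The cause was not tested.

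Correlations between libraries of the same replicate number ranged from -0.41 to 0.59 on the surface and from -0.06 to 0.06 in PBMCs. Between T cells and NK cells, libraries of the same number deviated together. Their correlations were 0.59, 0.31 and 0.51, against -0.55 to 0.15 for different numbers. Whether these libraries shared a batch or mice was not tested. With a replicate block, B cells had 30 lower, T cells 14 higher and 2 lower, HSPCs 24 lower, NK cells 22 higher and 1 lower, monocytes 31 higher, and PBMCs 0. The share of all transcripts called with the block is not given here, so these counts are no result about the members in particular.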
